A study of Mus musculus with 7 samples.

Results

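Neuroendocrine cells store peptide hormones in dense-core vesicles, and the genes described here encode the granins that pack these vesicles and the enzymes that mature their cargo. They were chosen by name as 10 of the 56941 genes in the count tables. The granins are Chga, Chgb, Vgf, Scg2 and Scg3. The processing genes are Scg5, which encodes the chaperone 7B2, the convertases Pcsk1 and Pcsk2, the carboxypeptidase gene Cpe and the amidating enzyme gene Pam.

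Values came from single-nucleus RNA sequencing of endpoint lung tumors of 4 male mice, 2 per genotype. RP mice (RP1 and RP2) carried Rb1 fl/fl and Trp53 fl/fl alleles, and RPC mice (RPC1 and RPC2) carried these and a Casp8 deletion, so that loss of Rb1 and Trp53 is shared by both groups. The labels write the last allele as Casp8-/-, whereas the methods of the study describe conditional alleles. The Casp8 fl/fl mice and the RP model were on a C57BL/6 background. An adenovirus that expresses Cre under the CMV promoter was inhaled through the trachea at 8 to 12 weeks of age, which deletes the floxed alleles in infected cells and is not restricted to any cell type. Casp8 is a protease of the extrinsic death pathway, and the comparison of RPC with RP asked what its loss changes in small cell lung cancer (SCLC), a neuroendocrine tumor.

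Each animal was 1 replicate, nuclei of all 4 animals were pooled into 7 libraries, and no cell barcode was shared between animals. Of 38254 nuclei kept, 32068 fell in clusters that carried the neuroendocrine tumor marker genes and are called tumor-like. Their summed counts reached 27407916 and 27164810 transcripts in RP1 and RP2, and 52555580 and 44976163 in RPC1 and RPC2. A ribosomal RNA gene, Rn18s-rs5, took 9.32 and 7.76% of these counts in RP and 2.79 and 5.04% in RPC, and without it and the mitochondrial genes no member changed its direction or its call between genotypes. A tumor-like cluster with neuronal marker genes held 590 nuclei of RPC1, 89.0% of all its nuclei, and leaving it out changed neither. Levels are given as counts per 1000000 counts (CPM), scaled between animals with the TMM method unless stated otherwise. Casp8 itself stood at 59.0 and 60.8 CPM in RP and at 89.0 and 66.4 in RPC. These counts sum reads over the whole gene, introns included, and therefore do not check the deletion. Genotypes are those of the labels throughout.

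Granins are acidic proteins of the vesicle core. Prohormones folded among them are cut at pairs of basic residues by Pcsk1 and Pcsk2, the exposed basic residues are removed by Cpe, and a C-terminal glycine is converted to an amide by Pam. Normal pulmonary neuroendocrine cells and most SCLC carry this machinery, and chromogranin A, the product of Chga, is a routine tissue marker of such tumors.

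The first 250 bases before the transcript start were read for 8 of the 10 genes from a RefSeq table of mouse promoters on GRCm38.p6, in which Vgf and Cpe are not listed. The sequences below are shown because these members hold a cyclic AMP response element (CRE) or a variant of it, a motif known from peptide hormone promoters. Each covers the 120 bases next to the start of the RefSeq transcript in that table, which in all 4 genes lies inside the gene span of the annotation used for gene positions, 5′ to 3′ on the gene's strand, with the motif in capitals. Their positions on GRCm39, from a match of the letters to that genome, were chr12:102521080-102521199 on the plus strand for Chga, chr2:132623442-132623561 on the plus strand for Chgb, chr1:79417744-79417863 on the minus strand for Scg2 and chr13:75237856-75237975 on the plus strand for Pcsk1.
Chga: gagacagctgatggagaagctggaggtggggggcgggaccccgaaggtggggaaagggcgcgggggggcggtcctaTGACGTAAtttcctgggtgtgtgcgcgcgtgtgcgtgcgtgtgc
Chgb: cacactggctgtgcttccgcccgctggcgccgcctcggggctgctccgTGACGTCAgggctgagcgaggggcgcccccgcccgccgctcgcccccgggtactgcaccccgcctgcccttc
Scg2: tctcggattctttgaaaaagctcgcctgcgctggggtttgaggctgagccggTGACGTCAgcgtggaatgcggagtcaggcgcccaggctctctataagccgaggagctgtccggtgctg
Pcsk1: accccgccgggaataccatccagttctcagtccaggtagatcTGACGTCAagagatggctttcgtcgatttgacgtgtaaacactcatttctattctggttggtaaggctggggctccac

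The full element TGACGTCA was found on either strand in 3 of the 8 promoters, those of Chgb, Scg2 and Pcsk1, and in 1.55% of all 32851 promoters of the same length. It began 72 bases before the start in Chgb, 68 in Scg2 and 78 in Pcsk1. Chga carried the variant TGACGTAA beginning 44 bases before its start, which 0.447% of all promoters held. The core letters TGACG, which lie within both of these motifs, were in 7 of the 8 promoters, all but that of Pam, and in 17.8% of all promoters. CAGCTG, a form of the E-box that basic helix-loop-helix factors can bind, was in the promoters of Chga, Pcsk2 and Pam and in 13% of all promoters. Such a match describes letters only, and binding was not measured.

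The genes are protein-coding and lie on GRCm39 chromosomes 1 (Scg2 and Pam), 2 (Chgb, Scg5 and Pcsk2), 5 (Vgf), 8 (Cpe), 9 (Scg3), 12 (Chga) and 13 (Pcsk1). All 10 were detected in the tumor-like nuclei of all 4 animals. Rest, a repressor of neuroendocrine genes, stood at 0.829 to 1.52 CPM in the same nuclei. Together the members took 0.237 and 0.293% of tumor-like counts in RP1 and RP2 and 0.361 and 0.369% in RPC1 and RPC2, so that both RPC animals lay above both RP animals. Most of these counts were Pam, Pcsk1 and Pcsk2, and the granins alone summed to 438 and 522 CPM in RP and 528 and 557 in RPC, unscaled. The 14 neuroendocrine marker genes, none of them a member, summed to 9798 and 8817 CPM in RP and 11631 and 12671 in RPC. Ciliated markers summed to 70.0 and 72.0 against 134 and 127 CPM and club markers to 12.2 and 23.9 against 61.9 and 48.6 in the same tumor-like nuclei, and their part in the members' levels was not tested.

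Nuclear RNA is largely unspliced and long genes collect more reads, so that levels of different genes were compared per kilobase of gene span, as a mean over the 4 animals. Chga was highest with 19.7 CPM per kb over a gene of 10.8 kb (chr12:102520484-102531300, GRCm39, plus strand). Scg2 followed with 14.03 over 5.45 kb, and Pcsk1 with 12.01 over 47.6 kb (chr13:75237284-75284898, plus strand). The ranges over animals of these neighbours overlapped, Scg2 alone running from 7.00 to 21.3 CPM per kb.

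Chgb came next with 7.24 CPM per kb and Pam with 4.30, and the 4 animals of Chgb lay above those of Pam. Scg3, Scg5, Pcsk2 and Cpe formed a lower group with means of 2.41, 2.31, 1.80 and 1.60 CPM per kb, in which each neighbouring pair overlapped. Vgf, a granin-related gene that is induced by growth factors in neurons, closed the order with 0.439 CPM per kb and did not overlap with Cpe. Unscaled by length the order was different, since Pam and Pcsk2 span 301 and 272 kb, and Pam then had the highest level at 956 to 1471 CPM. These levels and those per kb are without TMM scaling.

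**Figure D1:**
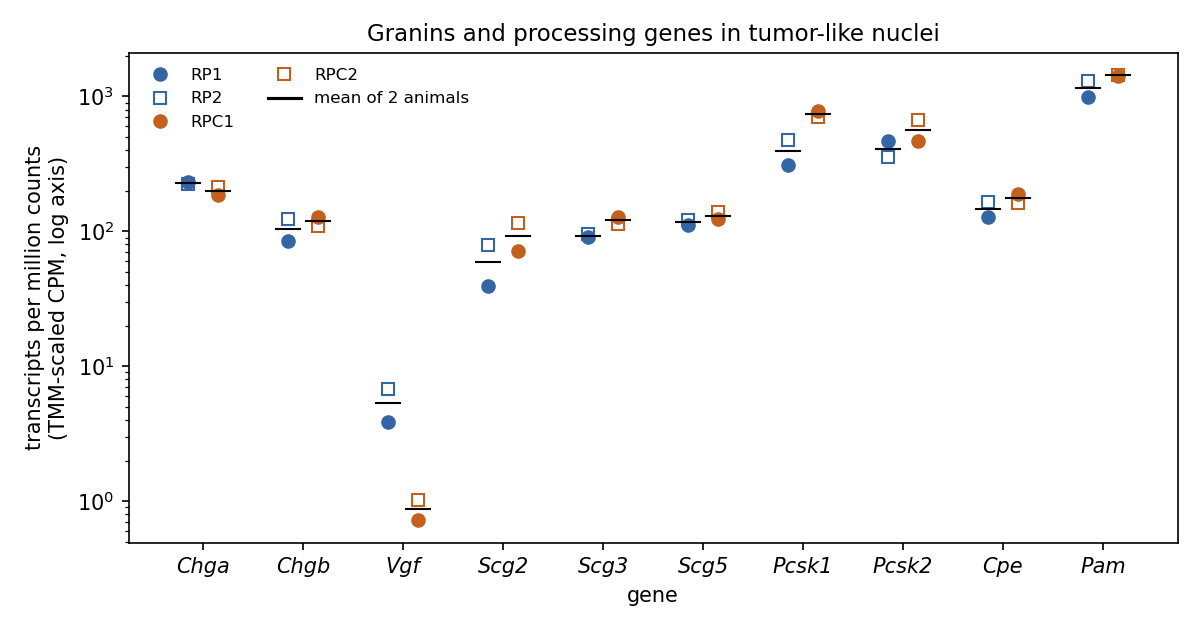
Level of each member in tumor-like nuclei of the 4 animals, in TMM-scaled CPM on a log axis, 1 point per animal and a bar at the mean of the 2 animals of a genotype. Pcsk1 lay at 309 and 477 CPM in RP and 785 and 702 in RPC, and Vgf at 3.85 and 6.80 against 0.721 and 1.01.

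Between genotypes no member passed the edgeR quasi-likelihood test with Benjamini-Hochberg adjustment over all 20054 genes tested. That test called 0% of all genes, so the count of 0 of 10 was also that of the whole table. At an unadjusted p under 0.05, 3 members and 15.2% of all genes passed. With DESeq2 an adjusted p under 0.05 was reached by Vgf alone among the members and by 3.78% of 17294 genes. In 5 members both RPC animals were higher than both RP animals, a pattern that 24.9% of all genes showed, and in 2 both were lower, as in 25.6% of all genes. The median log2 fold change of the 10 members was 0.29, against -0.01 over all genes tested.

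Among the granins, Chga had 234 and 223 CPM in RP and 185 and 212 in RPC. Both RPC animals were lower, by a small margin, and the log2 fold change was -0.20 (SE 0.14, adjusted p = 0.518 in edgeR). Chgb, a chromogranin of the vesicle core, had 85.1 and 123 CPM in RP against 128 and 110 in RPC, and the groups overlapped (log2 fold change 0.20, SE 0.22, adjusted p = 0.672 in edgeR).

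Scg2, the precursor of secretoneurin, ranged widely within each genotype. It stood at 39.4 and 79.4 CPM in RP1 and RP2 and at 71.1 and 115 in RPC1 and RPC2, so the groups overlapped (log2 fold change 0.65, SE 0.40, adjusted p = 0.468 in edgeR). That change ran from 0.23 without RP1 to 1.24 without RP2. Scg3, which tethers chromogranin A to the cholesterol-rich vesicle membrane, had 90.4 and 94.8 CPM in RP and 128 and 114 in RPC. Both RPC animals were higher (log2 fold change 0.39, SE 0.14, unadjusted p = 0.0358, adjusted p = 0.309 in edgeR).

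Vgf differed most in ratio and rested on the fewest transcripts, 102 and 183 in RP against 39 and 46 in RPC. This was 3.85 and 6.80 CPM against 0.721 and 1.01, and the groups did not overlap. The log2 fold change was -2.62 (SE 0.44, unadjusted p = 0.00171, adjusted p = 0.264 in edgeR), and DESeq2 gave an adjusted p of 3.80e-05. Over 16 alternative settings its adjusted p ran from 3.80e-05 to 0.464, and its log2 fold change from -2.97 to -2.15. The difference therefore passed with DESeq2 and in no edgeR setting.

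Scg5 encodes 7B2, the chaperone that brings proPcsk2 to the vesicle. It had 112 and 121 CPM in RP and 122 and 139 in RPC, higher in RPC by little more than 1 CPM at the nearest pair (log2 fold change 0.17, SE 0.14, adjusted p = 0.588 in edgeR).

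Pcsk1, the convertase that makes the first cuts in most prohormones, showed the widest gap of the abundant members. Its level was 309 and 477 CPM in RP1 and RP2 and 785 and 702 CPM in RPC1 and RPC2. The log2 fold change was 0.92 (SE 0.25, unadjusted p = 0.0129, adjusted p = 0.280 in edgeR and 0.0603 in DESeq2), or 1.89-fold. RP1 was the lower of the RP animals, and the log2 fold change was 0.64 without RP1 and 1.27 without RP2.

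Pcsk2, the convertase of the later cuts, had 464 and 358 CPM in RP and 466 and 671 in RPC, and RPC1 was level with RP1 (log2 fold change 0.47, SE 0.24, adjusted p = 0.410 in edgeR). A pair of antisense transcripts lie within Pcsk2, Pcsk2os1 at 7.66, 6.33, 17.2 and 17.0 CPM and Pcsk2os2 at 1.82, 1.36, 3.10 and 2.78 CPM, the RP animals given before the RPC animals. Whether counting used the strand is not given in the sources used here, and without it reads of overlapping genes cannot be told apart.

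Cpe, which trims basic residues left by the convertases and also sorts prohormones, had 129 and 164 CPM in RP and 188 and 163 in RPC, with RPC2 just below RP2 (log2 fold change 0.26, SE 0.18, adjusted p = 0.503 in edgeR). Pam, the only known amidating enzyme of peptide hormones, stood at 988 and 1310 CPM in RP and at 1429 and 1435 in RPC. Both RPC animals were higher and close to each other, and the log2 fold change, 0.32 (SE 0.20, adjusted p = 0.475 in edgeR), was 0.13 without RP1.

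The animals were then split by the units of the barcoding. Each animal filled 2 or 3 wells of the first barcoding round and 7 sublibraries. For Vgf, Scg3, Pcsk1 and Pam every well and every sublibrary of RPC lay on the same side of every one of RP, whereas for the other 6 members they overlapped. Over all genes tested 6.2% separated in this way with RPC higher, as Scg3, Pcsk1 and Pam did, and 2.65% with RPC lower, as Vgf did. Both shares were larger, 11.3 and 4.60%, among the 10169 genes whose mean log2 CPM reached 3. Scg3, Pcsk1 and Pam belong to these more abundant genes, whereas Vgf, with a mean of 1.62, does not. In CPM without TMM scaling, the wells of Pcsk1 ran from 241 to 502 in RP and from 687 to 833 in RPC, and those of Pam from 886 to 1393 and from 1425 to 1505. These units share the animal, and hence show technical spread only.

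The surrounding pathway was read from 3 lists. Of 19 other processing enzymes and chaperones 18 were tested, and 0 were called by edgeR (3 at an unadjusted p under 0.05, and Ece1 alone by DESeq2). In 4 of them both RPC animals were higher and in 6 lower, with a median log2 fold change of -0.03. The named genes were all lower in RPC: Furin, the convertase of the constitutive pathway, with a log2 fold change of -0.71, Ece1 and Ece2, which encode endothelin-converting enzymes, with -0.73 and -0.23, and Aplp1 with -0.76. Furin stood at 34.3 and 34.3 CPM in RP and 24.1 and 17.9 in RPC, and Ece1 at 378 and 361 against 219 and 226.

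Of 24 genes for dense-core vesicle formation and cargo loading 22 were tested, with 0 called by edgeR, 3 at an unadjusted p under 0.05 and Slc18a1 alone by DESeq2. Both RPC animals were higher in 7 and lower in 4, and the median was 0.10. Slc18a1, the vesicular monoamine transporter gene, had 323 and 367 CPM in RP and 563 and 553 in RPC (log2 fold change 0.69, adjusted p = 0.0456 in DESeq2). Rab27b, a vesicle-docking GTPase gene, and Resp18 were also higher in both RPC animals, with 0.71 and 0.63. Ptprn, a transmembrane protein gene of the vesicle, was lower with -0.55 (SE 0.31). It stood at 175 and 221 CPM in RP and 173 and 97.1 in RPC, so RPC1 was nearly level with RP1.

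Of 47 peptide precursor genes 30 were too low to test and 17 were tested, with a median of -0.54. Of these, 0 were called by edgeR (3 at an unadjusted p under 0.05, and Calca alone by DESeq2). Precursors over 20 CPM numbered 2, Calca and Nucb2. Calca, the precursor of calcitonin and calcitonin gene-related peptide, which requires Pam for its amide, stood at 795 and 711 CPM in RP and 1743 and 1669 in RPC (log2 fold change 1.18, adjusted p = 0.264 in edgeR and 2.67e-05 in DESeq2).

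To see how many tumor-like nuclei carried each transcript, every nucleus was thinned to 1000 counts and shallower nuclei were left out (752, 741, 139 and 427 in RP1, RP2, RPC1 and RPC2). Pcsk1 was seen in 24.5% (95% exact interval 23.5 to 25.6) and 35.5% (34.3 to 36.7) of RP nuclei and in 52.4% (51.4 to 53.5) and 46.8% (45.7 to 47.8) of RPC nuclei. The mean difference was 19.6 percentage points, and the exact permutation p was 0.333, the smallest that 2 against 2 animals can give. Intervals cover counting error only.

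Both RPC animals were thus above both RP animals in the share of nuclei with Pcsk1 as well as in its level. Pam was seen in 57.7 and 69.4% of RP and 73.6 and 72.0% of RPC nuclei, and Pcsk2 in 32.8 and 26.2% against 35.8 and 44.4%. Chga, at 18.7 and 17.8% against 16.4 and 18.3%, overlapped between genotypes. The share of nuclei in which 3 or more of the 10 members were seen was 23.5 and 30.4% in RP and 43.9 and 44.4% in RPC.

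Without thinning Pcsk1 was seen in 52.4, 65.1, 85.1 and 78.6% of nuclei, at median depths of 2594, 2504, 3380 and 2970 counts in these nuclei. Free RNA can add transcripts to nuclei that do not express a gene, so the same shares were read in endothelial-like nuclei at 1000 counts. There Pcsk1 was seen in 15.3 and 19.4% (RP) and 22.5 and 30.8% (RPC), at median depths of 2708 to 4451 counts. Of all 93, 160, 92 and 177 endothelial-like nuclei, 18, 45, 18 and 41 were in clusters at least 3 times as deep as their animals, and these were not left out here. The tumor-like share of Pcsk1 was above the endothelial-like interval in RP2, RPC1 and RPC2, whereas the 24.5% of RP1 lay within it (8.40 to 24.7). For Chga the tumor-like share was above the endothelial-like interval in RP1 only, 18.7% against 5.88% (1.94 to 13.2), and in RP2, for example, 17.8% stood beside 16.9% (10.8 to 24.7). In macrophage or monocyte-like nuclei Chga was seen in 2.11 to 10.6%.

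Vgf was seen in 0.301 and 0.371% of RP and 0.133 and 0.158% of RPC tumor-like nuclei. In endothelial-like nuclei it was in 0 of 85, 124, 89 and 156, with exact upper limits of 4.25, 2.93, 4.06 and 2.34%, so that a share as low as that in tumor-like nuclei was not detectable there.

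**Figure D2:**
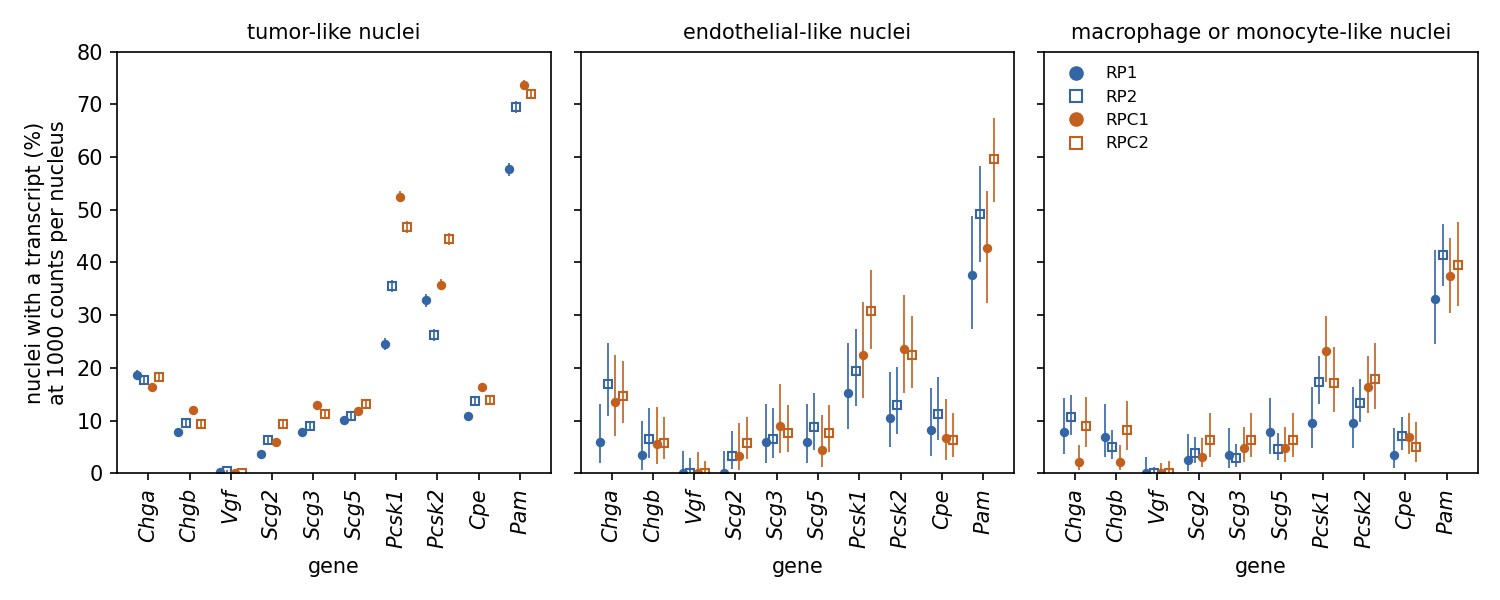
Percent of nuclei with at least 1 transcript of each member after thinning to 1000 counts, for tumor-like, endothelial-like and macrophage-like nuclei of each animal, with 95% exact binomial intervals. Tumor-like shares of Pcsk1 run from 24.5 to 52.4%, and endothelial-like ones from 15.3 to 30.8%.

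Within the tumors the members varied from cluster to cluster. There were 18 units of tumor-like cluster by animal with at least 100 nuclei, and their levels are CPM without TMM scaling. Scg2 ranged 5.08-fold over them, from 31.5 to 160 CPM, and Pcsk1 4.39-fold, from 233 CPM in a cluster of RP1 to 1025 in one of RPC1. Scg3 and Scg5 ranged least among members seen in every unit, 1.92-fold and 1.97-fold. Pcsk1 in RP1 alone ran from 233 to 414 CPM over 6 clusters and in RPC2 from 419 to 859 over 5, so clusters of the same tumor differed as well as animals. Chga peaked elsewhere, at 336 CPM in the largest cluster of RP1, where Cpe had its lowest value, 108 CPM.

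Over these units Pcsk1 and Scg3 had the highest correlation of log2 levels among members (Pearson r = 0.87), followed by Scg2 with Cpe (0.80). Chga had low values throughout, with r = 0.40 to Scg5 as its highest. Vgf was negative with 8 of the 9 others, down to -0.67 with Scg3. Vgf rested on 0 to 93 transcripts per unit. These are descriptions over 18 units that share animals, libraries and depth. The units also come from both genotypes, between which Vgf was lower and Scg3 and Pcsk1 were higher in both RPC animals. The part of genotype in these correlations was not tested.

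Among genes with at least 20 CPM, the one most like Pcsk1 was B4galt6 (r = 0.95), then Adcy2 and Cpeb4. Most like Scg3 was Galk2 (0.94) and then Rab2a (0.92), a GTPase gene of vesicle formation that is on the dense-core vesicle list. Kif5b, a kinesin motor gene, was most like Scg2 (0.93), Kcnk1 most like Chgb (0.90), Ikbkg most like Cpe (0.92), Ino80dos most like Scg5 (0.90) and Kalrn most like Pam (0.91). Lower maxima belonged to Vgf with Fbxl19 (0.88), Chga with Zfp398 (0.83) and Pcsk2 with Gria1 (0.79).

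The tumor-like nuclei were next divided by cell cycle. In nuclei thinned to 1000 counts, those with 4 or more transcripts of S phase and mitosis genes were called cycling, and those with at most 1 low-cycling. Cycling nuclei made up 62.6, 55.6, 66.5 and 70.5% of RP1, RP2, RPC1 and RPC2, and low-cycling nuclei 15.8, 20.6, 12.8 and 11.9%. Counts were summed per animal and state, and the states were compared within animals.

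Here 8 of the 10 members fell in cycling nuclei, and none rose (edgeR with the animal as a block, adjusted over 15722 genes). Over all genes tested, 17.1% fell and 16.8% rose. DESeq2 also called 8 members. The median log2 change of the 10 members was -0.33, against -0.01 over all genes. Each of the 8 was lower in cycling nuclei in 4 of 4 animals.

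Chga went from 283 CPM in low-cycling to 211 in cycling nuclei of RP1, from 281 to 203 in RP2, from 217 to 172 in RPC1 and from 259 to 203 in RPC2. All 4 animals moved the same way and by a like amount, and the log2 change was -0.40 (SE 0.05, adjusted p = 5.04e-05 in edgeR). Scg2 had the largest change of the members, from 49.0 to 35.6, 100 to 71.2, 106 to 63.7 and 154 to 107 CPM in the same order (log2 change -0.56, SE 0.06, adjusted p = 1.71e-05 in edgeR). Within every animal the cycling nuclei were thus lower, although RPC2 cycling nuclei still exceeded RP2 low-cycling ones.

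Chgb fell by less, from 90.1 to 83.1, 150 to 112, 146 to 124 and 122 to 107 CPM (log2 change -0.25, SE 0.06, adjusted p = 0.00709 in edgeR). The granin Scg3 was an exception, with 88.7 to 89.3, 80.5 to 99.0, 123 to 126 and 126 to 113 CPM. It was higher in cycling nuclei in 3 animals and lower in RPC2 (log2 change 0.04, SE 0.07, adjusted p = 0.681 in edgeR). Vgf, with as few as 4 transcripts in a sum, gave -0.21 (SE 0.25, adjusted p = 0.563 in edgeR).

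The chaperone gene Scg5 fell from 132 to 103, 151 to 108, 136 to 116 and 174 to 133 CPM (log2 change -0.37, SE 0.06, adjusted p = 0.000257 in edgeR). Of the convertase genes, Pcsk1 fell from 371 to 290, 576 to 434, 886 to 747 and 879 to 672 CPM (log2 change -0.35, SE 0.05, adjusted p = 0.000144 in edgeR). In both states both RPC animals had more Pcsk1 than both RP animals. Pcsk2 fell by 0.31 on the log2 scale (SE 0.07, adjusted p = 0.00296 in edgeR), most in RPC2, from 903 to 629 CPM, and least in RPC1, from 480 to 455.

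Pam fell from 1303 to 897, 1572 to 1227, 1756 to 1333 and 1978 to 1348 CPM (log2 change -0.46, SE 0.05, adjusted p = 1.84e-05 in edgeR). Low-cycling nuclei of every animal thus carried more of the amidating enzyme transcript than its cycling nuclei. The smallest called change was that of Cpe, -0.18 (SE 0.06, adjusted p = 0.0272 in edgeR), which in RP1 went from 131 to 129 CPM only.

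The change did not pass a test of difference between genotypes for any member, with an adjusted p of 0.985 or more in each (edgeR interaction of state and genotype). That test called 3 genes, 0.0191% of all, and 799 at an unadjusted p under 0.05. For Pcsk1 the change in RPC minus that in RP was 0.07 (SE 0.11) and for Chga 0.10 (SE 0.11).

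**Figure D3:**
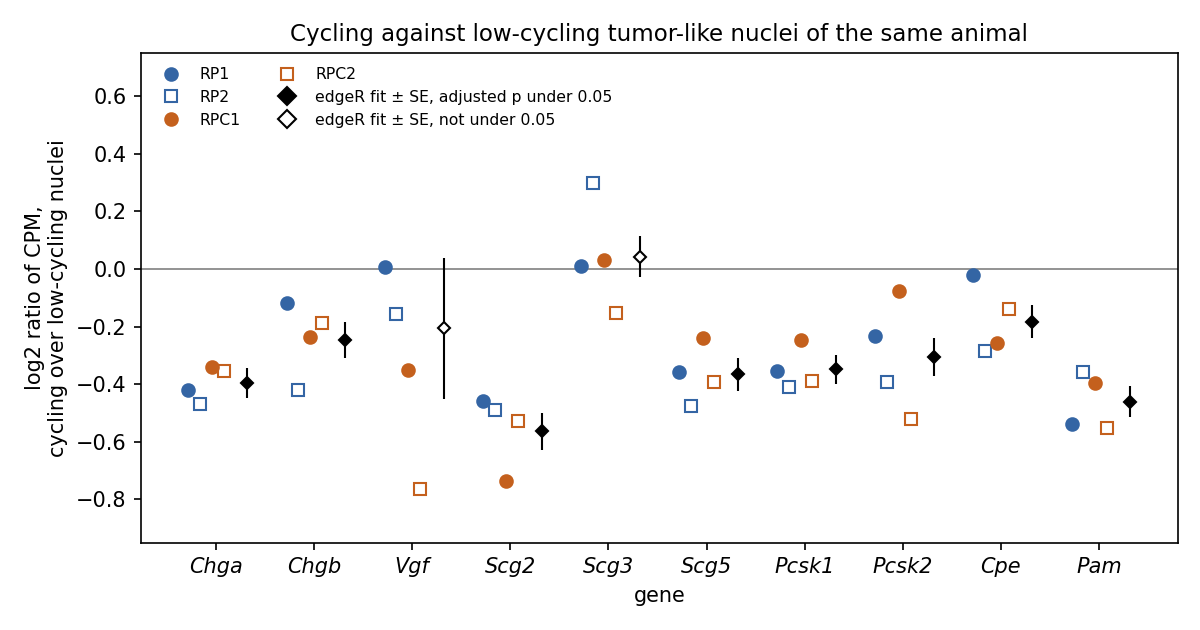
Log2 ratio of cycling to low-cycling tumor-like nuclei for each member, 1 point per animal, with the fitted change and its SE. For 8 members all 4 animals lie below 0, and Scg3 is spread to both sides of it. Vgf lies at 0.005 in RP1 and below 0 in RP2, RPC1 and RPC2.

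Other measures moved with the cell cycle division. The marker list of neuroendocrine tumors, which holds none of the members, was also lower in cycling nuclei, summing to 9506 CPM against 11185 in low-cycling nuclei of RP1, 8515 against 9533 in RP2, 11423 against 12383 in RPC1 and 12213 against 15090 in RPC2. Of its 14 genes 7 passed, 2 higher and 5 lower. Rn18s-rs5 took a larger share of cycling counts in every animal, for example 9.47 against 7.75% in RP1 and 2.85 against 2.55% in RPC1, and nuclei deeper than 4 times the median made up 10.5 to 11.7% of cycling and 2.35 to 3.97% of low-cycling nuclei. Without such deep nuclei all 8 kept their call, while the part of Rn18s-rs5 was not tested.

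Cycling nuclei were also unevenly spread over clusters, from 31.5 to 99.2% of a unit. Within the largest tumor-like cluster of each animal, an alternative chosen after seeing the data, Chga (-0.17), Scg2, Scg5, Cpe (-0.26) and Pam (-0.33) kept a call by edgeR. Chgb (-0.16, adjusted p = 0.0602 in edgeR), Pcsk1 (-0.10, adjusted p = 0.118) and Pcsk2 (-0.10, adjusted p = 0.182) did not, and Scg3 was called in the other direction (0.19, adjusted p = 0.0340). With mitosis genes alone Chgb (-0.11) and Cpe (-0.05) lost their call. Both also lost it with limits of 3 or more and 0 transcripts and without RP2, and Cpe lost it without RPC1 and with sums of thinned counts (adjusted p = 0.0588 in edgeR).

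The pathway lists moved in the same comparison. Of 20 dense-core vesicle genes tested 12 fell and 1, Cadps2, rose by edgeR, with a median log2 change of -0.31. Rab27b fell from 148 to 104, 188 to 113, 196 to 141 and 440 to 226 CPM, Resp18 fell with a fold of 0.700 and Rab3d, another secretory-vesicle GTPase gene, with a fold of 0.706 (edgeR adjusted p = 0.000372 and 0.00777). Of 16 other processing genes 4 fell, among them Furin (fold 0.776) and the lysosomal protease gene Ctsl (fold 0.640). The other two that passed were higher, the constitutive convertase gene Pcsk6 (fold 1.42) and Ece2, which was named after its value was seen and was not called by DESeq2 (adjusted p = 0.129). Of 8 peptide precursors 2 fell, Calca and Calcb, and 1, Gnrh1, rose by edgeR (adjusted p = 0.0519 in DESeq2). Calca fell from 1233 to 654, 950 to 618, 2544 to 1536 and 2629 to 1493 CPM, a log2 change of -0.77 (SE 0.06, adjusted p = 2.10e-07 in edgeR). Insm1, a neuroendocrine transcription factor gene, rose by 0.45 on the log2 scale (adjusted p = 0.0141 in edgeR), without a call in DESeq2 (adjusted p = 0.0693).

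Outside the tumor-like nuclei, levels of members were read beside the 14 neuroendocrine marker genes, since both could reach other nuclei as free RNA or in doublets. The percent of the tumor-like level that a class retained was computed for each member and, as a median, for the marker list. Nuclei in clusters at least 3 times as deep as their animals numbered 502 of 1063 club-like and 99 of 352 alveolar type 2-like nuclei. The values that follow leave such clusters out, which was decided after seeing the data.

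In nuclei of the airway and lung wall Pam lay above the marker median, though often within the spread of the single markers. In club-like nuclei Pam retained 62.1, 81.8 and 81.3% of its tumor-like level in RP2, RPC1 and RPC2, where the marker list retained 24.5, 41.2 and 28.4%. In RPC1 this was 3067 Pam transcripts in 385 nuclei. In alveolar type 1-like nuclei Pam retained 37.5 to 87.9% against 6.73 to 29.4%, and 47.7 to 75.6% against 28.1 to 47.2% in nuclei of the smooth muscle or pericyte class. Against the highest of the 14 single markers Pam was above in 2 of 3 club-like animals, 1 of 4 alveolar type 1-like and 1 of 4 smooth muscle or pericyte-like animals. In club-like nuclei of RP2, for example, the markers ran from 0 to 88.4%.

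Pam is known to be expressed beyond neuroendocrine cells, and its level was not raised in all classes. In macrophage or monocyte-like nuclei Pam retained 32.6 to 43.4% and the marker list 31.7 to 50.5%, with Pam above the list in 2 of 4 animals. Over all classes Pam was above the marker median in every animal measured in 7 of 10 classes, and with deep clusters included in 8 of 11. Among the 7, the fibroblast-like and mesothelial-like classes were measured in 1 animal each.

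The other members were spread around the marker median, some above it. Chgb exceeded it in 4 of 4 B cell-like, T or NK cell-like and endothelial-like animals. Pam did so in 2 of 4 B cell-like and 2 of 4 T or NK cell-like animals. Chgb was also above it in the single fibroblast-like and mesothelial-like animals. It was below the median in some alveolar type 1-like, alveolar type 2-like, macrophage-like and pericyte-like animals. In alveolar type 1-like nuclei Chga retained 6.60 to 36.7% and Pcsk1 9.31 to 35.3%, beside marker medians of 6.73 to 29.4%. Chgb and Scg2 exceeded Pam in that class in RP2, with 62.8 and 54.6% against 41.1%. In smooth muscle or pericyte-like nuclei Scg2 retained 31.5 to 121%, from 3 to 15 transcripts per animal, and was above every single marker in 2 of 4 animals. In club-like nuclei Pcsk1 retained 29.5, 44.6 and 27.9% and Chga 29.0, 53.5 and 31.3%, with Chga, Chgb, Scg2 and Cpe above the marker median in 3 of 3 animals. Vgf was seen with 0 or 1 transcript in each animal's club-like nuclei. Classes come from clusters of the same nuclei, so these are descriptions without a test, and expression of any member in these classes cannot be told apart from free RNA or doublets.

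**Figure D4:**
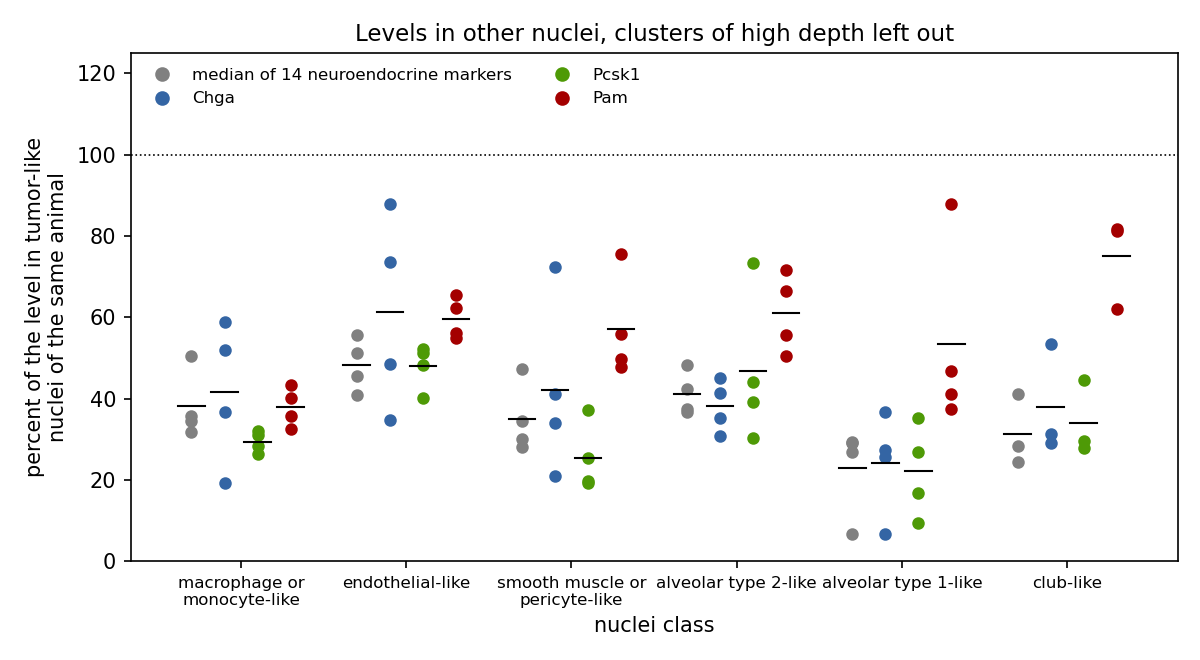
Percent of the tumor-like level retained in 6 classes of nuclei for Chga, Pcsk1, Pam and the median of the 14 neuroendocrine markers, 1 point per animal and a bar at their mean. Pam in club-like nuclei lies at 62.1 to 81.8%, above marker medians of 24.5 to 41.2%.

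A last set of nuclei, left unnamed, was rich in Rn18s-rs5 and shallow, with 650, 542, 395 and 492 nuclei in RP1, RP2, RPC1 and RPC2. In them the 3 members with genes under 20 kb other than Vgf were higher than in tumor-like nuclei and those over 60 kb lower. Log2 ratios of unnamed to tumor-like level were 0.69 to 1.27 for Scg2 (5.45 kb), 0.60 to 1.03 for Chga (10.8 kb) and 0.69 to 1.58 for Chgb (15.4 kb). Between these lengths the members differed, with -0.18, 0.12, 0.43 and 0.50 for Scg3 (44.5 kb), -0.65 to -0.01 for Pcsk1 (47.6 kb) and -0.54 to -0.31 for Scg5 (53.4 kb). The longest genes gave -0.67 to -0.15 for Cpe (101 kb), -1.33 to -1.11 for Pcsk2 (272 kb) and -1.38 to -0.87 for Pam (301 kb).

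Chga, Chgb and Scg2 lay above 0 and Pcsk2 and Pam below 0 in every animal, whereas Vgf had at most 9 transcripts in these nuclei. Over all genes measured in these nuclei the median log2 ratio also declined with span, from -0.13 to 0.32 under 20 kb to -0.88 to -0.60 over 60 kb. All 3 short granin genes were above the median of their length class in every animal. Over expressed genes the same length classes had medians of -0.08, 0.03 and 0.06 in RPC against RP and 0.04, -0.02 and -0.05 in cycling against low-cycling nuclei. The part of gene length in the members' changes was not tested.

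**Figure D5:**
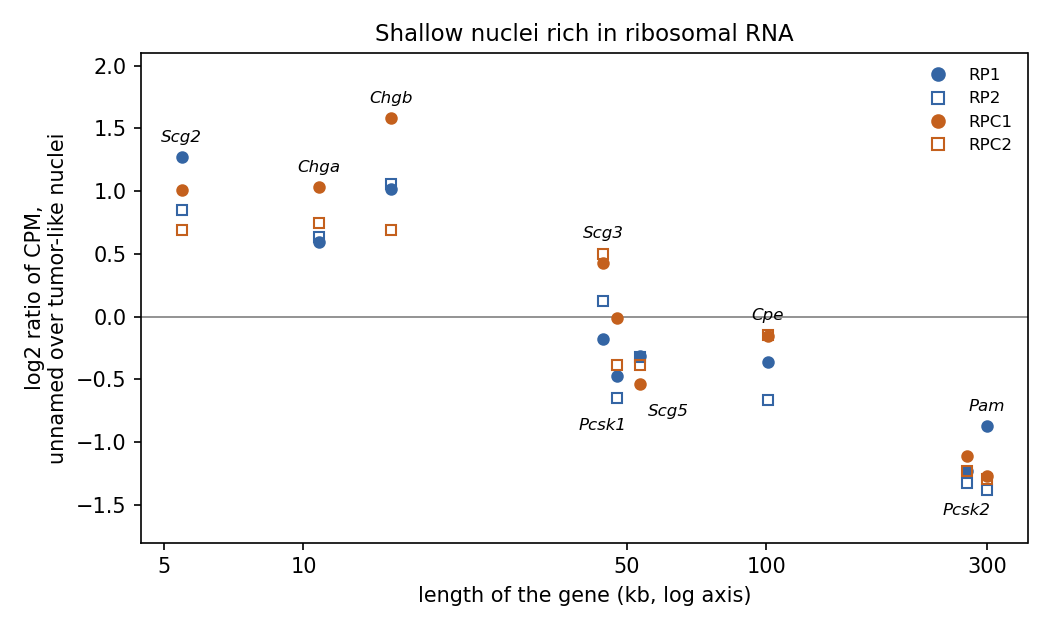
Log2 ratio of the level in unnamed, Rn18s-rs5-rich nuclei to that in tumor-like nuclei against gene span in kb on a log axis, 1 point per animal for each member but Vgf. Chga, Chgb and Scg2 lie above 0, and Pcsk2 and Pam lie at -0.87 or lower.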

How the data were processed

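Nuclei from endpoint tumors of 4 mice were barcoded with a combinatorial kit and sequenced as 7 libraries that pool all animals. The authors aligned reads to GRCm39 with Ensembl 110 genes, demultiplexed them with the Parse pipeline and deposited raw counts of transcripts per nucleus and gene for each animal. Whether counting used the strand is not given in the sources used here. Of 12 metadata columns 8 were not used.

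Nuclei with at least 300 counts, at most 12000 genes and at most 10% mitochondrial counts were kept (38254 of 38353). They were clustered (2000 variable genes without the members, 20 principal components, Leiden resolution 0.4), and clusters were named from marker lists. Clusters with a median of over 15% Rn18s-rs5 were left unnamed, a limit set after seeing them. No doublet caller was run, and deep nuclei or clusters were left out as alternatives.

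Counts were summed per animal, since nuclei are not replicates, and tested with edgeR 4.0.16 in R 4.3.3 (quasi-likelihood, TMM scaling, Benjamini-Hochberg over all genes tested, threshold 0.05), RPC against RP and cycling against low-cycling with the animal as a block. DESeq2 1.42.0, the tool of the study, other scalings and filters, thinning, cluster resolution and leaving out each animal were alternatives. Nothing pairs the animals of different genotypes. On simulated counts the first test recovered 93% of 100 genes changed by 1 on the log2 scale and the second 100% of 100. The simulation gave every gene the same fixed spread between animals and changed abundant genes only. These shares are therefore not the power of the tests on the real counts. The members and gene lists were chosen with earlier results of these data known. From each list the genes with the largest changes were named, provided their mean log2 CPM reached 3 and the genotypes did not overlap or, for cycling, the gene was called and moved one way in 4 animals. Likeness was the Pearson r of log2(CPM + 5) over units of at least 100 nuclei. No p-value separates animals from their tumors.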

Additional observations from a re-analysis of the deposited data

How the results depend on the processing

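With 2 animals per genotype, 0 genes passed edgeR for RPC against RP, and the call of any member there rested on the tool, DESeq2 calling 653 genes and, among the members, Vgf. Leaving out an animal gave 0 to 2 genes, the 2 without RP1, and low-cycling nuclei alone gave 1. The animal numbers did not pair the genotypes (r = -0.04 for RP1 with RPC1), and a block on them gave 0 genes. With 2 animals per genotype, the r of RP2 with RPC2 equals this value by construction. For cycling against low-cycling nuclei 5331 genes were called, 4265 to 4627 with an animal left out, and 591 without the replicate block, where no member was called. Directions reversed for Chgb between genotypes without RP replicate 1 (-0.04, up to 0.49 without RP replicate 2), for Vgf in cycling nuclei with mitosis markers alone (0.12) and within the largest cluster of each animal (0.22, chosen after seeing the data), and for Scg3 with mitosis markers alone (-0.11) and without RP replicate 2 (-0.05, up to 0.10 without RPC replicate 2). The Chga share of nuclei, RPC minus RP, turned from -0.89 points to 4.41 without thinning and ran from -1.89 to 0.097 with an RPC animal left out, the latter without RPC replicate 1. Why these values moved was not tested. Counts were lowest for Vgf among the members, 39 to 183 transcripts per animal.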
